A study of Mus musculus with 16 samples.

Results

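The 10 genes described here make, recycle or use glutathione: Gclc, Gclm, Gss, Gsr, Slc7a11, Gpx1, Gpx4, Mgst1, Glrx and Gstp1. They were chosen by name, and every probe set whose only annotated gene symbol was one of them was taken, which gave 18 of the 45037 probe sets on the arrays. Gpx1 and Gstp1 had 1 probe set each and the other 8 genes had 2 each, called here the brighter and the dimmer by their mean signal in the cells. RNA was hybridised to 16 Affymetrix mouse arrays in 4 groups of 4, from oxi exo, norm exo, oxi cell and norm cell. All 4 groups came from MC/9, a mouse mast cell line kept in medium with Rat T-Stim and with 2-mercaptoethanol, itself a reducing agent. Oxi means exposure to 125 µM H2O2 for 24 h and norm means no such exposure, with vehicle in its place. The paper reports that many of the cells died at the dose it chose. The part of this cell death in the differences between oxi and norm was not tested. Exosomes had passed a 0.22 µm filter and were pelleted at 120000 g for 70 min. The sample labels say that the cells had been given exosomes of each condition, whereas the paper treats them as the donor cells, and the groups were used as in the paper. Whether the 4 replicates of a group were separate cultures is not stated for all of them, so p-values measure the spread between these arrays, which may be technical.

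Glutathione is a tripeptide that holds most of the non-protein thiol of a cell. Glutamate-cysteine ligase, of the catalytic subunit Gclc and the modifier Gclm, joins glutamate to cysteine in the rate-limiting step, and Gss adds glycine. Slc7a11 imports cystine, the source of cysteine. Glutathione peroxidases such as Gpx1 and Gpx4 spend glutathione to reduce H2O2 and lipid peroxides, Gsr regenerates it with NADPH, Glrx removes it from protein thiols, and Gstp1 and Mgst1 join it to electrophiles. Several of these genes, Gclc, Gclm, Gsr and Slc7a11 among them, are known targets of the transcription factor NRF2.

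The deposited values are MAS5 signals on a linear scale, on which every array has a trimmed mean of 100. The files hold no detection calls, so background was taken from 180 probe sets for 153 genes of smell, taste, eye, hair, tooth, milk, gut and germ cells, as the value that 95% of them did not exceed on an array. It averaged 246 ± 19.7 in oxi exo, 217 ± 5.94 in norm exo, 11.1 ± 0.792 in oxi cell and 14.1 ± 2.22 in norm cell (SD, n = 4 each). Exosome arrays thus had a background 22.1 times that of cell arrays under oxidative stress and 15.4 times under normal conditions, and the spiked hybridization controls differed by 20.8 and 17.3 times. The 3' to 5' signal ratio of Gapdh, a measure of RNA integrity, was 1.43 to 2.33 on exosome arrays and 0.823 to 0.884 on cell arrays. The same ratio of beta-actin was 2.77 to 4.48 in oxi exo, 3.81 to 6.55 in norm exo, 1.30 to 1.55 in oxi cell and 1.41 to 1.46 in norm cell. Exosome arrays oxi 3 and oxi 4 had 2990 and 3059 probe sets above background, against 4372 to 5247 on the other 6. Of 14 measured mast cell markers, 12 were detected in oxi cell and 11 in norm cell, where Mcpt1 and Mcpt4 were below background on every array. The summed signal of these markers was 1933 to 2648 in oxi exo, 4346 to 6858 in norm exo, 32003 to 38138 in oxi cell and 42506 to 46523 in norm cell. Their part in the results below was not tested. The number of arrays limits the precision.

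In the cells 8 of the 10 genes were detected, that is, above background on all 4 arrays, in both conditions. These were Gclc, Gclm, Gss, Gsr, Gpx1, Gpx4, Glrx and Gstp1, with 14 probe sets (77.8% of the 18, against 45.6% of all probe sets in oxi cell and 44.9% in norm cell). The exceptions were Slc7a11 and Mgst1. In exosomes Gstp1 was detected in norm exo (1 of 18 probe sets, 5.56%, against 5.28% of all) and none of the 18 was detected in oxi exo, where 3.12% of all were. The median SD of the log2 signal over the 18 probe sets was 0.97 in oxi exo, 1.04 in norm exo, 0.21 in oxi cell and 0.12 in norm cell.

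**Figure D1:**
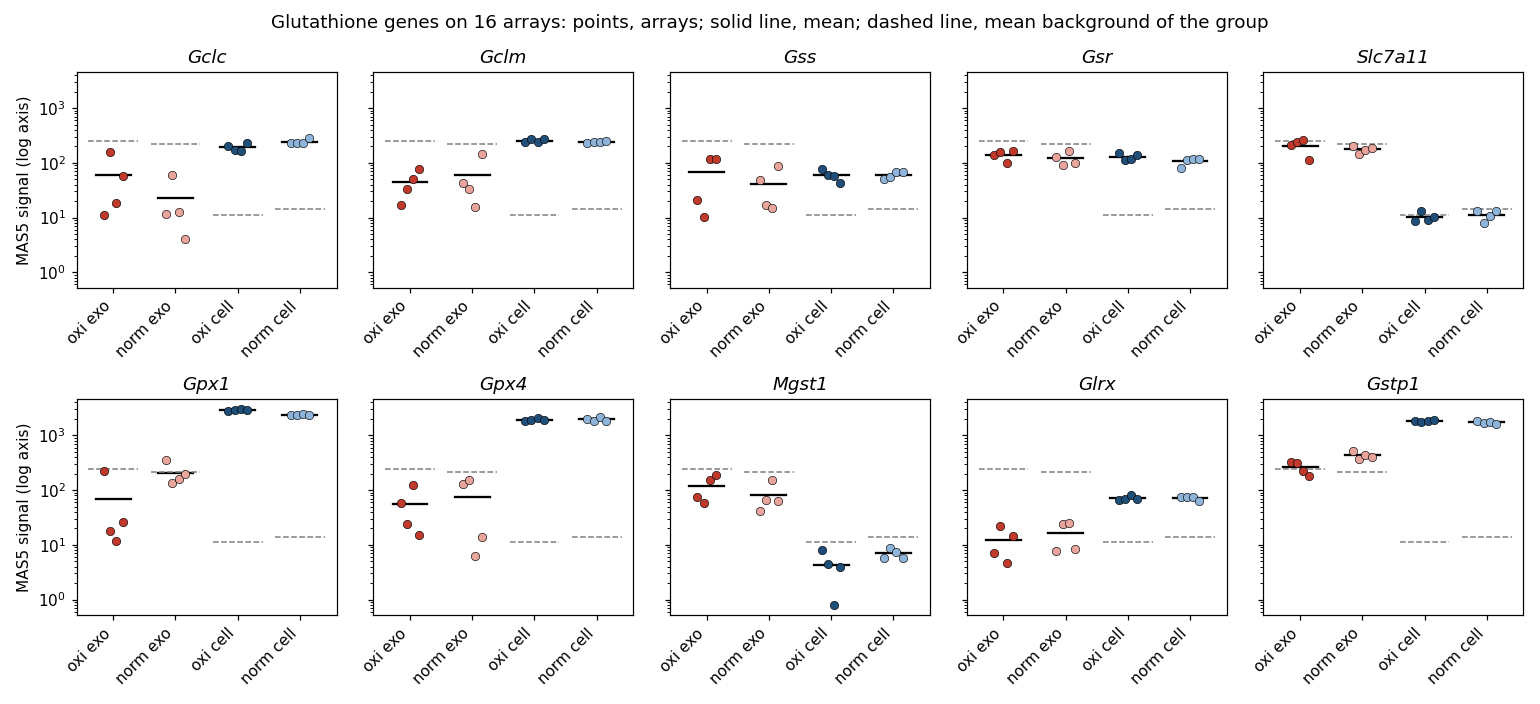
MAS5 signals (log axis) of the 10 genes on the 4 arrays of each group, with the probe set of the highest mean cell signal for each gene; solid lines mark the mean and dashed lines the mean background of the group. Only Gstp1 in norm exo lies above background on all 4 exosome arrays, whereas 8 genes do so in the cells.

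In the cells Gpx1 was called higher and Gclc lower with H2O2, and the other 8 genes did not pass the test. The test was limma on the log2 signals of 4 oxi cell and 4 norm cell arrays, in which arrays of equal replicate number formed a block. Of the 18 probe sets 1 was higher and 2 were lower, against 4.31% of all probe sets called higher and 5.51% called lower. The median log2 difference was -0.04 over the 18 and -0.15 over all probe sets. In bulk RNA, fewer cells with a transcript and less of it per cell cannot be told apart. Neither the Gpx1 nor the Gclc calls held after adjustment with the paired test of the methods. Those of Gclc were also lost with scaling to the spiked controls.

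Gpx1, the cytosolic peroxidase that reduces H2O2 and a selenoprotein, had signals of 2804, 2876, 3045 and 2916 in oxi cell, against 2347, 2349, 2417 and 2370.4 in norm cell. Every oxi cell array lay above every norm cell array. The signal was 22.7% higher in oxi cell (log2 difference 0.30, standard error 0.05, adjusted p = 0.00298 from limma). It was called without each of the 4 replicate numbers as well, with adjusted p from 0.00764 to 0.0293. With the paired test of the methods it was higher at an unadjusted p under 0.05 and had an adjusted p of 0.0859. Over that test and the 6 other alternatives of processing the adjusted p ran from 2.77e-05 to 0.0859.

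Gpx4, the peroxidase that reduces lipid hydroperoxides in membranes and a selenoprotein like Gpx1, did not follow it. Its brighter probe set had 1798, 1902, 2066 and 1939.9 in oxi cell, against 2029, 1845, 2133 and 1846 in norm cell, and the groups overlap. The log2 difference was -0.03, with a 95% confidence interval of -0.15 to 0.10 (adjusted p = 0.847 from limma). The dimmer probe set, whose x_at suffix marks probes that can bind other transcripts too, gave -0.02 (interval -0.14 to 0.10). Scaled to the spiked controls, both were called higher in oxi cell (log2 differences 0.27 and 0.28).

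Gclc, the catalytic subunit of glutamate-cysteine ligase, was lower in oxi cell by both of its probe sets. The brighter had 206, 173, 164 and 232 in oxi cell, against 230.1, 233, 226 and 282 in norm cell. All 4 pairs of equal number had the lower value in oxi cell, but oxi cell 4 lay above norm cell 1 and 3. It was 20.6% lower in oxi cell (log2 -0.33, standard error 0.08, adjusted p = 0.0204 from limma). The dimmer had 128, 117, 115 and 108 in oxi cell, against 172, 147, 149 and 153 in norm cell, and these groups do not overlap. It was 24.7% lower in oxi cell (log2 -0.41, standard error 0.08, adjusted p = 0.0101 from limma). The call of the first was lost without the replicate block (adjusted p = 0.0671), while that of the second held. The call of the first also held without replicate 1 and was lost without replicate 2, 3 or 4 (adjusted p = 0.104, 0.0669 and 0.065), and that of the second was lost without replicate 1 or 4 (adjusted p = 0.0504 and 0.0548). Scaled to the spiked controls, the log2 differences were -0.04 and -0.11 and neither was called (adjusted p = 0.899 and 0.594 from limma). With the paired test of the methods both were lower at the unadjusted threshold of 0.05. Neither was called after adjustment of that test (adjusted p = 0.160 and 0.0976).

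Gclm, the modifier subunit, did not pass the test, and its difference from Gclc was not tested. Its brighter probe set had 241, 276, 239 and 269 in oxi cell, against 229, 243, 244 and 248 in norm cell, with overlap between the groups. The log2 difference was 0.08 (interval -0.07 to 0.24, adjusted p = 0.545 from limma), and the dimmer probe set had -0.21 (interval -0.51 to 0.08). The signs of the 2 probe sets thus differed and neither passed the test. Scaled to the spiked controls, the brighter was called higher (log2 difference 0.38).

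Because NRF2 binds the antioxidant response element, promoters in RefSeq (build GRCm38.p6) were searched on both strands for its core, TGACNNNGC. The first 4 letters of the core can also be part of an AP-1 site. Each window ran from 250 bases before to 50 after an annotated transcript start, which need not be the outermost start of the gene. Windows were held for 8 of the 10 genes, 13 in all. Of these 13 windows 2 had a match, that of Gclm and 1 of those of Mgst1. Of the 32851 windows of all genes 12.4% had a match. The table held no window for Gclc and Gsr, which were not searched. The stretches around both matches are shown, since they were the only ones. The capitals mark the match, on the opposite strand in both, and the stretches are chr3:122245397-122245457 (plus strand) for Gclm and chr6:138140445-138140505 (plus strand) for Mgst1.
Gclm: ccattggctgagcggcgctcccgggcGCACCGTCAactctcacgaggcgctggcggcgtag
Mgst1: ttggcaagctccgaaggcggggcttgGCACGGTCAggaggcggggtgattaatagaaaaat
The match begins 134 bases before the transcript start of its window in Gclm and 56 bases before that in Mgst1. It is a match of letters and no measured site, and neither gene passed the test with H2O2 in the cells.

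The enzymes of the later steps, Gss and Gsr, did not pass the test in the cells. Gss, glutathione synthetase, had 78.8, 59.9, 57.5 and 42.9 in oxi cell, against 51.1, 55.9, 66.8 and 68.7 in norm cell by the brighter probe set, with overlap. The log2 differences of its 2 probe sets were -0.04 (interval -0.45 to 0.37) and 0.11 (interval -0.21 to 0.44). Gsr, glutathione reductase, had 149.8, 112, 115 and 139.6 in oxi cell, against 79.1, 112, 119.8 and 115 in norm cell by the brighter probe set. Norm cell 1 was the lowest of these 8 arrays and the groups overlap. The log2 difference was 0.29, of the size of that of Gpx1 but with a wider interval (-0.03 to 0.60, adjusted p = 0.279 from limma), and that of the dimmer was 0.18 (interval -0.05 to 0.42). Both of Gsr were called higher when scaled to the spiked controls (log2 differences 0.58 and 0.48).

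Glrx, the cytosolic glutaredoxin, had 66.2, 67.5, 80.6 and 67.9 in oxi cell, against 76.3, 76.1, 74.9 and 63.6 in norm cell by the brighter probe set. Both of its probe sets had a log2 difference of -0.04, with intervals of -0.30 to 0.21 and -0.35 to 0.27. Gstp1, the pi-class transferase, had 1806, 1768, 1823 and 1897 in oxi cell, against 1827, 1700.3, 1742 and 1620.0 in norm cell. The groups overlap, and the log2 difference was 0.08 (interval -0.04 to 0.21, adjusted p = 0.428 from limma), or 0.38 with a call of higher when scaled to the spiked controls. The mouse genome holds a nearly identical paralog, Gstp2, and the signal cannot be assigned between the paralogs here.

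Slc7a11, the cystine transporter, was at background in the cells. Its brighter probe set had 8.70, 13.1, 9.13 and 10.0 in oxi cell, against 13.4, 7.85, 10.8 and 12.9 in norm cell, with 1 array of 4 above background in each group. Mgst1, the microsomal transferase, was below background on all 8 cell arrays by both probe sets, at 0.376 to 8.06 in oxi cell and 0.303 to 8.84 in norm cell. No fold is given for them in the cells, since neither group measured a level.

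**Figure D2:**
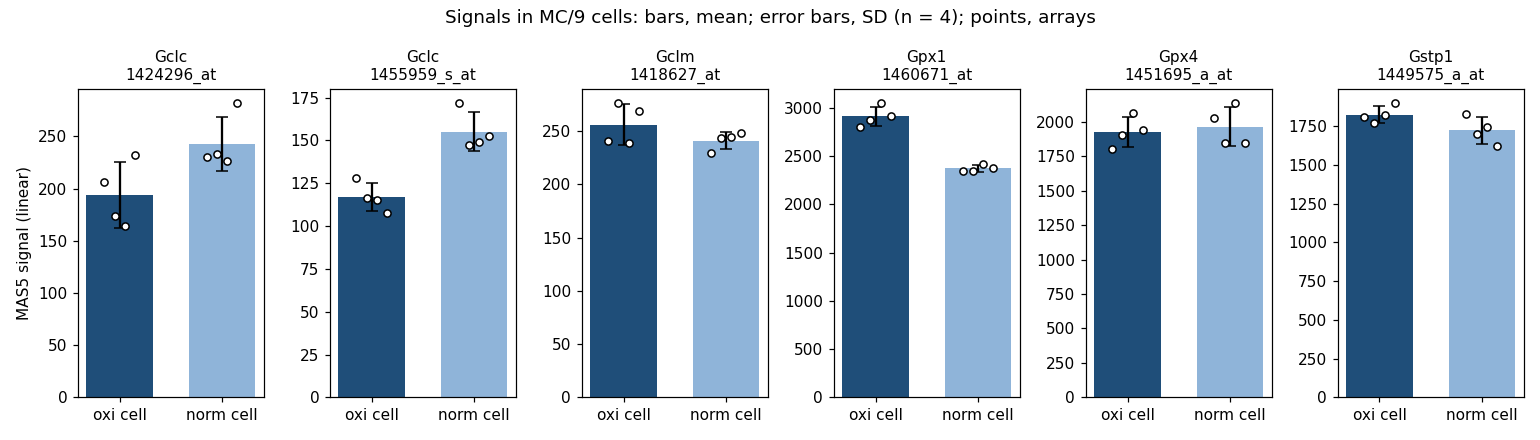
Signals in MC/9 cells for 6 probe sets (linear axis from 0), with oxi cell left of norm cell; bars show the mean, error bars the SD of 4 arrays and points the arrays. The groups are apart for Gpx1, at 2804 to 3045 in oxi cell and 2347 to 2417 in norm cell, and for the dimmer probe set of Gclc (second panel), and overlap for the other 4.

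In exosomes no glutathione probe set passed the test between oxi exo and norm exo. Over all probe sets, 0.0311% were called higher and 1.7% lower in oxi exo, and at an unadjusted p under 0.05 limma gave 2 of the 18, Gpx1 and Gstp1, both lower. The paired test of the methods on linear signals gave the same 2 genes at the unadjusted threshold of the methods and none after adjustment. The median log2 difference was 0.11 over the 18 probe sets and 0.06 over all.

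Gstp1 was the gene best measured in exosomes, with 324, 317, 222 and 181 in oxi exo, against 513, 377, 437 and 410.1 in norm exo. Every oxi exo array lay below every norm exo array. It averaged 261 ± 70.7 in oxi exo and 434 ± 57.9 in norm exo (SD, n = 4 each), a log2 difference of -0.77 with a 95% interval of -1.35 to -0.18 (adjusted p = 0.304 from limma). Oxi exo 3 and 4 lay below the background of their arrays, and these are also the arrays with the fewest probe sets above background. With signals set to at least the background of each array, the log2 difference was -0.57 and passed the test (adjusted p = 0.0207 from limma). That fit put oxi exo 3 and 4 at their backgrounds, and it called 33.7% of its 10725 probe sets higher and 9.83% lower. Over the 7 alternatives the adjusted p of Gstp1 ran from 0.0207 to 0.496.

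Gpx1 had 220.4, 18.3, 11.6 and 25.6 in oxi exo, against 353, 133, 157 and 195 in norm exo. Each oxi exo array was below the norm exo array of equal number, and the groups overlap since oxi exo 1 stood apart from the other 3. Of these 8 arrays norm exo 1 alone exceeded its background. The log2 difference was -2.56 (standard error 0.65, interval -3.93 to -1.19, adjusted p = 0.0614 from limma). It ranged from -3.19 to -2.16 with each replicate number left out, with adjusted p from 0.122 to 0.219. With a pseudocount of 100 the log2 difference was -0.98 and passed the test (adjusted p = 0.0413), and with signals set to at least background it did not (adjusted p = 0.996). The latter put every one of these arrays but norm exo 1 at its background, so it cannot measure the change.

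The remaining 16 probe sets had adjusted p from 0.640 to 0.992 in exosomes, and their intervals were wide. The brighter Gclc probe set had 11.0, 157, 18.8 and 56.7 in oxi exo, against 11.6, 61.1, 12.8 and 4.10 in norm exo, all below background. Its log2 difference was 1.40, with an interval of -0.74 to 3.55. The brighter Gclm probe set had 16.9, 33.2, 50.4 and 76.7 in oxi exo, against 43.2, 33.7, 15.8 and 143 in norm exo, also below background on every array. The dimmer Gpx4 probe set came nearest to background after Gstp1, with 346, 227, 132 and 167 in oxi exo, against 221, 291, 93.2 and 329.7 in norm exo. It was above background on 1 oxi exo array and 3 norm exo arrays, and its log2 difference was -0.05 (interval -0.82 to 0.72). The brighter Slc7a11 probe set had 214, 239, 261 and 112 in oxi exo, against 203, 146, 173 and 190.4 in norm exo, with 1 of these 8 arrays above background.

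**Figure D3:**
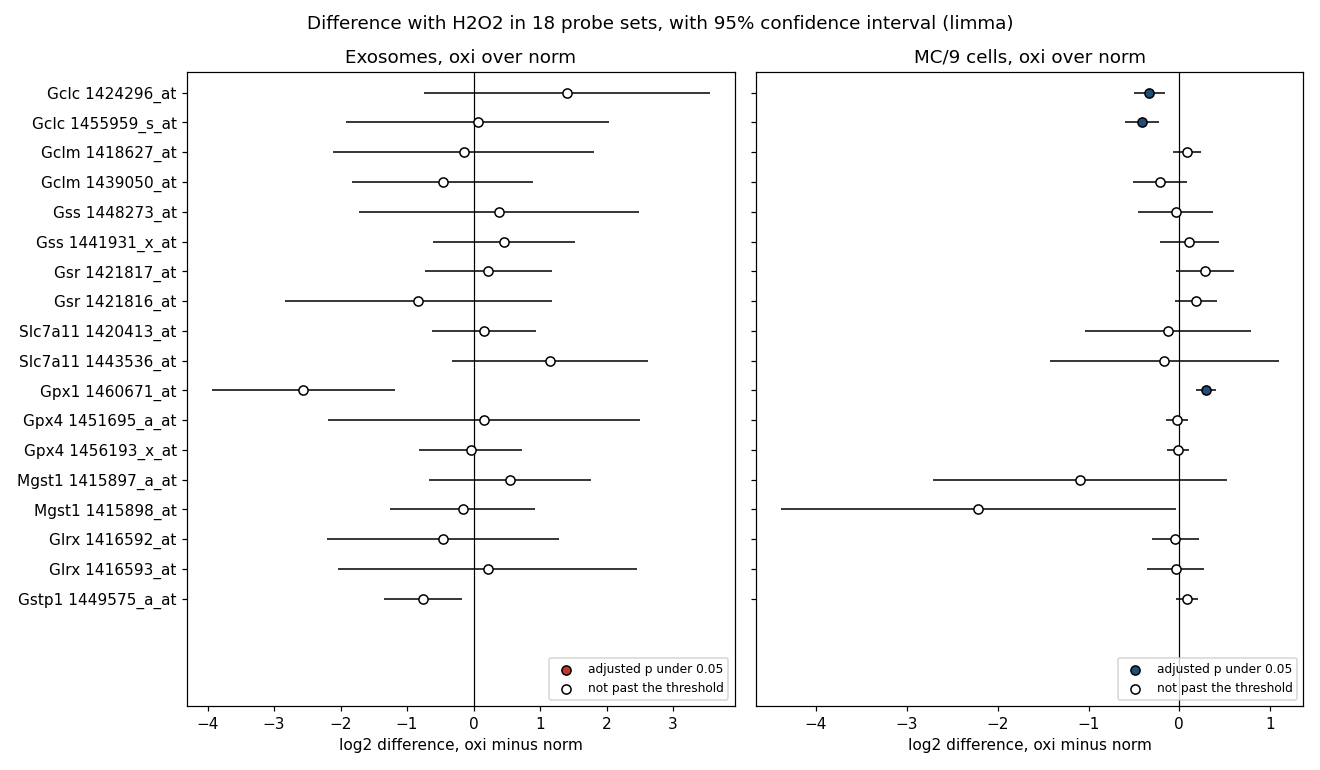
Log2 difference of oxi minus norm for the 18 probe sets in exosomes (left) and in MC/9 cells (right), with 95% confidence intervals from limma; filled points passed an adjusted p of 0.05. In exosomes no point is filled, and in cells those of Gclc (2) and Gpx1 (1) are; the axes of the panels differ.

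Whether H2O2 moved exosomes and cells alike was tested on the oxi minus norm differences of the 4 exosome and 4 cell pairs. None of the 18 probe sets, and 0% of all probe sets in either direction, passed the test. At an unadjusted p under 0.05 limma gave 1 of the 18, Gpx1, with an exosome change of -2.56 and a cell change of 0.30 on the log2 scale. The difference was -2.85 (interval -4.49 to -1.22, adjusted p = 0.329 from limma). Gpx1 was higher with H2O2 in 4 of 4 cell pairs and lower in 4 of 4 exosome pairs, but norm exo 1 alone of the 8 exosome arrays was above background, so that 3 of these pairs compare signals below it. With signals set to at least background, the difference between the changes was -0.29 (adjusted p = 0.197 from limma). That setting put every exosome array but norm exo 1 at its background, so it cannot measure the exosome change. The absence of calls over all probe sets rests on the fit: without the replicate block 0.249% were called higher and 1.7% lower, and with a pseudocount of 100 it was 0.324% and 1.85%, and Gpx1 was then called (log2 difference -1.26, adjusted p = 0.0165).

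Between exosomes and cells, Gpx1, Gpx4 and Gstp1, with the highest cell signals of the 10 genes, were called lower in exosomes in both conditions. Gclc, the brighter Gclm and the brighter Glrx probe set were also called lower. Of these, the dimmer Gclc and the brighter Glrx had cell signals below the background of the exosome arrays. In oxi exo against oxi cell, 9 of the 18 were called lower and 5 higher, where 19.4% of all probe sets were lower and 60.8% higher. In norm exo against norm cell, 8 were called lower and 4 higher, where 19% of all were lower and 57.7% higher. The median log2 difference over all probe sets was 2.67 under oxidative stress and 2.23 under normal conditions, and over the 18 it was -1.22 and -1.13. Since a cell signal near 200 would itself lie below the background of the exosome arrays, a bound on the fold could be set for few genes, taken against that background.

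For Gpx1 the level of oxi exo was at least 11.9-fold lower than that of oxi cell (adjusted p = 4.18e-05 from limma), where 0 of 4 exosome arrays exceeded background. In norm exo it averaged 209 ± 98.7, against 2371 ± 32.6 in norm cell (adjusted p = 4.89e-06 from limma), and no fold is given, since 1 of 4 exosome arrays exceeded background. The brighter Gpx4 probe set gave at least 7.84-fold lower levels in oxi exo than in oxi cell and at least 9.04-fold lower in norm exo than in norm cell. Gstp1 averaged 261 ± 70.7 in oxi exo, against 1823 ± 54.3 in oxi cell (log2 difference -2.85, adjusted p = 3.38e-05 from limma). In norm exo it averaged 434 ± 57.9, against 1722 ± 86.2 in norm cell (3.99-fold lower, adjusted p = 1.74e-05 from limma). These sizes depend on the scaling: the log2 difference of Gstp1 was -1.52 in oxi exo against oxi cell and -0.51 in norm exo against norm cell with quantile normalization, and -7.22 and -6.10 when scaled to the spiked controls. The bounds given as at least N-fold rest on means and leave out the spread between arrays. The directions of Gpx1, Gpx4 and Gstp1 held with quantile normalization, with scaling to the spiked controls and with signals set to at least background.

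Gclc and Gclm had cell signals close to the background of exosome arrays. The brighter Gclm probe set gave a bound of at least 1.04-fold lower in oxi exo than in oxi cell and at least 1.11-fold lower in norm exo than in norm cell. That of Gclc gave at least 1.12-fold lower in norm exo than in norm cell. No bound could be set for the other calls of lower signal, since the cells lay below that background: Gclc by the dimmer probe set and Glrx by the brighter in both conditions, and Gclc by the brighter and Gsr by the dimmer under oxidative stress. The 2 probe sets of a gene had the same call for 4 of 8 genes under oxidative stress and for 6 of 8 under normal conditions.

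The probe sets called higher in exosomes were those of Slc7a11 and Mgst1 in both conditions, and the dimmer of Gss under oxidative stress. The brighter of Slc7a11 averaged 207 ± 66.2 in oxi exo, against 10.2 ± 1.98 in oxi cell, and that of Mgst1 averaged 119 ± 61.5 in oxi exo, against 4.29 ± 2.98 in oxi cell. None of the 5 was detected in an exosome group, with at most 1 of 4 arrays above background. The log2 difference of the brighter of Slc7a11 was 4.28 in oxi exo against oxi cell and 4.00 in norm exo against norm cell, beside 4.46 and 3.96 for the mean backgrounds, and no fold is given. Scaled to the spiked controls, Slc7a11 had log2 differences of -0.10 in oxi exo against oxi cell and -0.10 in norm exo against norm cell for the brighter probe set, without a call. In the same order Mgst1 had 5.04 and 3.40 by the brighter probe set and 7.57 and 5.52 by the dimmer. Scaled to the spiked controls, these were 0.66 and -0.71 for the brighter and 3.19 and 1.41 for the dimmer. Both Mgst1 probe sets were below background on every exosome and cell array, so no level was measured.

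**Figure D4:**
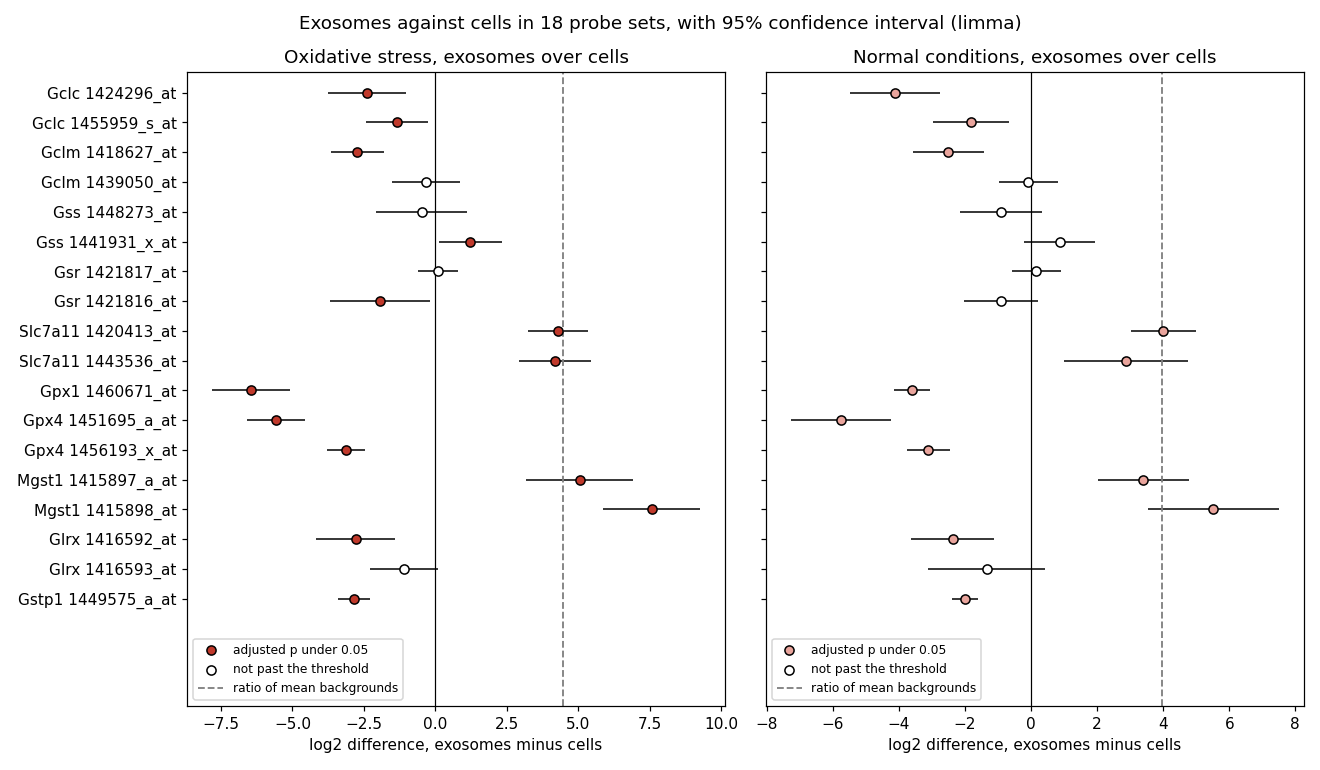
Log2 difference of exosomes minus cells for the 18 probe sets under oxidative stress (left) and normal conditions (right), with 95% confidence intervals from limma; filled points passed an adjusted p of 0.05 and the dashed line is the log2 ratio of the mean backgrounds. Gpx1, Gpx4 and Gstp1 lie left of 0 in both panels, and the brighter Slc7a11 probe set lies near the dashed line.

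Other genes of glutathione metabolism were described from 5 lists, with 1 probe set per gene. In the cells, 3 of 7 glutaredoxins and glyoxalases were higher in oxi cell, 2 of 14 genes of glutathione turnover and cysteine supply, 1 of 25 other transferases, 0 of 6 other peroxidases (0 with quantile normalization) and 0 of 7 genes of selenocysteine synthesis and insertion, and none of the 5 lists had a lower gene (1 each of the first, the third and the last did with quantile normalization). Of all probe sets, 4.31% were called higher and 5.51% lower in this comparison. Glo1, the glyoxalase that clears methylglyoxal with glutathione, averaged 696 ± 35.5 in oxi cell and 545 ± 31.9 in norm cell (log2 difference 0.35, adjusted p = 0.00581 from limma). Adh5, which acts on the glutathione adducts of formaldehyde and nitric oxide, had 701 ± 16.3 in oxi cell and 558 ± 21.6 in norm cell (log2 difference 0.33, adjusted p = 0.00356 from limma). Slc3a2, the heavy chain that carries Slc7a11 and other transporters to the membrane, had 1199.7 ± 86.6 in oxi cell and 964 ± 13.5 in norm cell (log2 difference 0.31). Anpep, an aminopeptidase of the cell surface, had 196 ± 14.2 in oxi cell and 135 ± 23.9 in norm cell (log2 difference 0.55), and Gsto1, an omega-class transferase, 275 ± 46.6 in oxi cell and 198 ± 26.3 in norm cell (log2 difference 0.47). With scaling to the spiked controls the counts of higher genes were 4, 6, 8, 0 and 2 in the order of the lists, and 14.3% of all probe sets were called higher and 0.955% lower.

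In exosomes 1 gene of the 5 lists passed the test, and 1.7% of all probe sets were called lower. It was Cndp2, a dipeptidase that splits cysteinylglycine, at 39.2 ± 55.4 in oxi exo, against 209.6 ± 122 in norm exo (adjusted p = 0.0342 from limma). No fold is given, since it was above background on 0 of 4 oxi exo arrays and 1 of 4 norm exo arrays. The summed signal of the 10 glutathione genes, 1 probe set each, was 949 to 1088 in oxi exo, 1103 to 1476 in norm exo, 7167 to 7599 in oxi cell and 6632 to 7042 in norm cell. Gpx1 had the highest mean cell signal of the 18 probe sets, and over the 16 arrays the probe sets of other genes whose log2 signal followed it most closely were those of Micos13, Emc7 and Park7 (Pearson r = 0.990, 0.990 and 0.987). These 16 points share the gap between exosome and cell arrays.

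Between exosomes and cells, all 6 other peroxidases were called higher in oxi exo than in oxi cell and 4 of 6 in norm exo than in norm cell, with none lower. Of all probe sets, 60.8% were called higher in the first comparison and 57.7% in the second, and none of the 6 peroxidases was above background on any exosome array. Of the glutaredoxins and glyoxalases, 1 of 7 was higher and 5 lower in oxi exo than in oxi cell, and 0 higher and 5 lower in norm exo than in norm cell, where 19.4% and 19% of all probe sets were lower. Scaled to the spiked controls, 1 of the 6 peroxidases was higher and 1 lower under oxidative stress, 1 was higher and 2 lower under normal conditions, and all 7 glutaredoxins and glyoxalases were lower in both. With that scaling 3.95% of all probe sets were higher and 49.9% lower under oxidative stress, and 2.74% were higher and 51.3% lower under normal conditions.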

How the data were processed

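RNA of exosomes and MC/9 cells had been hybridised to Affymetrix arrays. The deposited values are signal intensities that the authors made with MAS5.0, in GCOS 1.2 per the labels, and scaled each array to a mean of 100 after trimming 2% of probe sets at both ends. Probe sets took their symbols from the annotation of the platform. The 64 control probe sets were left out.

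The log2 signals of the other 45037 were tested with limma (version 3.58.1, R 4.3.3) using lmFit and a trended eBayes. Arrays of equal replicate number formed a block, since the methods name a paired test. Benjamini-Hochberg adjustment ran over the 45037, with calls under 0.05. Exosome and cell changes were compared on within-pair differences. Fits were tested on simulated data. A probe set below background on all 4 arrays of one group only got a fold as a bound, against the higher of its signal and the background on each array. The list genes took the probe set of the highest mean log2 signal in cells. Named were all 10 genes, up to 2 of largest rise and 2 of largest fall per other list among those called, and the 3 probe sets most like the brightest. The members and lists were chosen with earlier results of these data known. As alternatives, fits were made without the block, after quantile normalization, after scaling to 9 spiked control probe sets, above the median signal only, with a pseudocount of 100, with signals floored at background, by the paired test of the methods, and without each replicate number. Figures were drawn with matplotlib 3.10.9 in Python 3.11.15.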

Additional observations from a re-analysis of the deposited data

Results flagged for a closer look

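In 7 of 72 groups of 4 arrays, 1 array stood apart from the other 3 by more than Dixon's 95% critical value for 4 samples, which chance gives in about 1 in 20 groups. The high ones were 220.4 for Gpx1 in oxi exo, 61.1 for the brighter Gclc probe set in norm exo and 282 in norm cell, 80.6 for the brighter Glrx probe set in oxi cell, and 52.0 in oxi exo and 152 in norm exo for the dimmer. The low one was 63.6 for the brighter Glrx probe set in norm cell. Gpx1 was lower with H2O2 in all 4 exosome pairs and higher in all 4 cell pairs, and the difference between the changes was -2.85 on the log2 scale (adjusted p = 0.329 from limma). Of the 8 exosome arrays 1 was above background for Gpx1, and with signals set to at least background the difference was -0.29 (adjusted p = 0.197 from limma). That setting put the other exosome arrays at their backgrounds, so it cannot measure the exosome change.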

How the results depend on the processing

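Array number and exosome background limit these values. Same-numbered arrays did not deviate together (correlations -0.02 to 0.02). Without the replicate block, 1 probe set was lower in oxi cell in place of 2 (the brighter Gclc lost its call, adjusted p = 0.0671 from limma; 6.03% of all probe sets were lower), and without each replicate 0 to 1 was lower and 1 higher. By the methods' paired test, after adjustment, 0 were higher and 0 lower in oxi cell (0.00444% and 0.00666% of all probe sets). By that test 2 were higher in oxi exo than in oxi cell (21.6% of all) and 2 in norm exo than in norm cell (17.3% of all). Those exosome counts were 2 and 2 with quantile normalization (20.6% and 18.6% of all) and 1 and 1 above the median signal (34.4% and 32.9% of all). With log2(signal + 100), 1 was lower in oxi exo than in norm exo (2.22% of all), and 1 had a lower change in exosomes than in cells (1.85% of all). Scaled to the spiked controls, 7 were higher and 0 lower in oxi cell, 1 was higher and 14 lower in oxi exo than in oxi cell, and 0 were higher and 14 lower in norm exo than in norm cell. Of all probe sets that scaling called 14.3% higher and 0.955% lower, 3.95% higher and 49.9% lower, and 2.74% higher and 51.3% lower in these comparisons. It turned Gpx4 to 0.27 and 0.28 in oxi cell. In oxi exo against oxi cell it turned the dimmer Gss to -3.16, the brighter Gsr to -4.28 and Slc7a11 to -0.10 and -0.19. In norm exo against norm cell it gave -3.24, -3.95, -0.10 and -1.24 for these, and -0.71 for the brighter Mgst1. Floored at background, 1 was higher (Slc7a11) and 1 lower (Gstp1) in oxi exo than in norm exo, 11 were higher and 4 lower in oxi exo than in oxi cell, 9 higher and 5 lower in norm exo than in norm cell, and 4 changes were higher and 1 lower in exosomes than in cells. The shares of all tested were 33.7% and 9.83%, 76.4% and 18.3%, 75% and 19.5%, and 44.5% and 5.72% in this order. The floors differ between exosomes and cells by construction, and those of oxi exo and norm exo differed by 0.18 on the log2 scale. The brighter Slc7a11 probe set, at 0.19 there, had 1 of 4 oxi exo and 0 of 4 norm exo arrays above background. Its call thus mostly compares floors. With floored signals, oxi exo against oxi cell turned to 0.35 and 1.07 for Gclc, 1.67 for the dimmer Gclm, 2.07 for the brighter Gss, 1.08 for the dimmer Gsr, and 1.80 and 2.38 for Glrx. Norm exo against norm cell turned to 0.48 for the dimmer Gclc and to 1.27, 1.85, 1.09, 1.58 and 2.16 for the same others.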
